A study of Sus scrofa with 45 samples.

Results

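Gene expression in whole blood was compared between miniature pigs on the HFCSD diet and control pigs after 10 weeks of feeding. The comparison used the 4 arrays labelled as HFCSD and the 4 arrays labelled as control for this tissue and time, which are 8 of the 45 arrays of the series. All animals were young male Clawn miniature pigs, kept singly in a specific pathogen-free facility. Control pigs ate a standard dry feed. HFCSD pigs ate a high-fat, high-cholesterol feed with added lard, cholesterol and sucrose, and pigs of a further group, HFCD, ate lard and cholesterol without the added sucrose. The study also sampled whole blood at 19 and 27 weeks and white blood cells at 27 weeks. It asked how these diets alter the RNA that can be read from blood. Blood was drawn into PAXgene tubes, which stabilise RNA of all blood cells, and its Cy3-labelled copies were read in 1 colour on a porcine array of 43603 oligonucleotide probes. The methods count more pigs per diet than there are arrays of that diet at 10 weeks. The labels do not name the animal of an array, so the p-values measure the spread between these samples. The pigs were bled repeatedly over the feeding period, so arrays of different weeks and of white blood cells share animals.

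Animal cells adjust their cholesterol through a pair of opposed systems. Liver X receptors (LXR) respond to oxidised cholesterol and switch on exporters such as ABCA1, while SREBP transcription factors switch on the enzymes of sterol synthesis and are held inactive when membranes are rich in cholesterol. Leukocytes run both systems, and they also carry the interferon-induced genes, a set of mostly antiviral genes that interferons switch on.

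In HFCSD blood, ABCA1, which moves cholesterol out of cells, rose 3.94-fold, and a probe with no gene name, A_72_P072951, rose 3.71-fold. These were the only 2 of 16198 probes tested (0.0123%) that passed adjustment in limma, both higher, and 0 probes passed as lower. SQLE, which makes squalene epoxide on the way to cholesterol, was lower in every HFCSD array than in any control array, but its adjusted p was 0.393. Among probes well above background on every array of both groups, all 5 of sterol synthesis genes had lower means in the HFCSD group (52.7% of all such probes). Of interferon-induced genes 28 of 34 had higher means (82.4%, against 47.3% of all such probes), with HFCSD replicate 2 the highest array for many of them. The median log2 difference over these genes was 0.22 with all arrays and 0.21 without HFCSD replicate 2. Apart from ABCA1, no member of any gene list passed adjustment.

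The log2 intensities of the 16198 probes differed by a median of −0.01 between the HFCSD and control groups, and the median standard error of a difference was 0.24, as far as 4 arrays per group allow. A probe was tested if its spots were well above background on every array of the control group or of the HFCSD group. This held for 14365 probes on all arrays of both groups, for 634 on those of the control group alone and for 1199 on those of the HFCSD group alone. A probe of the last 2 kinds had to differ to be tested, so counts over gene lists below use the 14365. Of these, 47.3% were higher and 52.7% lower in mean, with an unadjusted p under 0.05 for 0.842% as higher and 0.557% as lower and no overlap for 0.633% and 0.278%. Over the 16198, without adjustment, p was under 0.05 in limma for 173 probes that were higher in HFCSD (1.07%) and for 107 that were lower (0.661%), 280 in all (1.73%). The groups did not overlap for 107 higher probes (0.661%) and 51 lower probes (0.315%). Both conditions held for 55 higher (0.340%) and 28 lower probes (0.173%). The study's own criterion, a fold above 2 or below 0.5 with the methods' t-test, was met by 18 higher (0.111%) and 4 lower probes (0.0247%), and this test with Benjamini-Hochberg adjustment called 0 probes. Without HFCSD replicate 2 the fold criterion took 42 probes, without control replicate 4 it took 39 and without HFCSD replicate 4 it took 36. With a weaker mark for presence it took 187 probes, so that this count depends on where dim probes are cut off.

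The share of probe spots well above background was 43.3%, 43.4%, 35.4% and 41.7% on control replicates 1 to 4. It was 41.5%, 37.1%, 48.1% and 48.1% on HFCSD replicates 1 to 4. Control replicate 3 and HFCSD replicate 2 had the dimmest arrays, and the groups overlapped (means 40.9% and 43.7%, exact permutation p = 0.457, where 0.0286 is the smallest that 70 assignments can give). The 8 arrays came on 3 slides, scanned on the same day. Slide 1 held control replicate 1 and HFCSD replicates 1 and 2, slide 2 held control replicate 2 and HFCSD replicate 3, and slide 3 held control replicates 3 and 4 and HFCSD replicate 4. Over the 14365 probes the median difference was −0.01 over all 8 arrays and −0.03, 0.11 and 0.03 within slides 1, 2 and 3, the background for the list medians below.

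ABCA1 loads cellular cholesterol and phospholipid onto apolipoprotein A-I and is a standard target of LXR. Its log2 intensity was 9.63, 9.65, 9.26 and 9.48 on control replicates 1 to 4. In the HFCSD group it was 11.20, 11.65, 11.38 and 11.69. All 4 HFCSD arrays lay well above all 4 control arrays, and the spread within either group was small beside the gap. The rise was 1.98 on the log2 scale (SE 0.21, adjusted p = 0.0105, higher in 4 of 4 HFCSD arrays). In blood as a whole, more RNA per cell and more cells of a type that carries the RNA cannot be told apart, here and for every gene below. Within slides 1, 2 and 3 the HFCSD arrays were higher by 1.80, 1.74 and 2.32, and with the slide as a block the estimate was 1.99 with an adjusted p of 0.0515. The adjusted p was also above 0.05 without control replicate 2 (0.0534), control replicate 3 (0.0707), HFCSD replicate 2 (0.0549), HFCSD replicate 3 (0.0657) or HFCSD replicate 4 (0.0657), while the estimates stayed between 1.90 and 2.07.

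A_72_P072951 carries the annotation "Unknown" on this array, and its gene was not identified here. Its log2 intensity was 6.31, 6.09, 6.18 and 6.19 on control replicates 1 to 4 and 7.87, 7.99, 8.11 and 8.37 on HFCSD replicates 1 to 4. The control arrays were nearly level and every HFCSD array was far above them. The rise was 1.89 (SE 0.22, adjusted p = 0.0105). It was 1.62, 2.02 and 2.19 within slides 1, 2 and 3 and 1.94 with the slide as a block (adjusted p = 0.0515). Leaving out control replicate 2, control replicate 3, HFCSD replicate 2, HFCSD replicate 3 or HFCSD replicate 4 brought its adjusted p to 0.0699, 0.0707, 0.0549, 0.0686 and 0.0657, with estimates between 1.80 and 1.96.

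**Figure D1:**
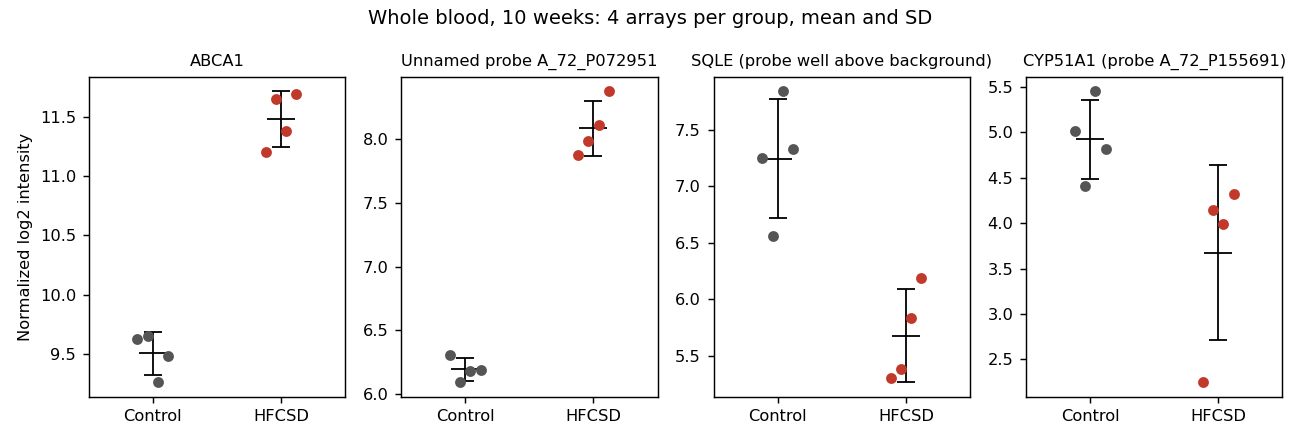
Normalized log2 intensity (y axis, a separate scale in each panel) of 4 probes in whole blood at 10 weeks, by diet (x axis). Each point is 1 of 4 arrays, the horizontal bar is the group mean and the whiskers are 1 SD. ABCA1 and A_72_P072951 were higher on every HFCSD array than on any control array, and SQLE and CYP51A1 (A_72_P155691) were lower, with CYP51A1 of HFCSD replicate 1 at 2.25.

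Both probes were high under HFCD as well. ABCA1 read 11.89, 11.28, 12.22 and 12.15 on HFCD replicates 1 to 4, a mean difference from control of 2.38 (SE 0.22). HFCSD and HFCD share the same control arrays, so these are 2 readings against the same baseline. In HFCD blood limma called 4 of 17767 probes as higher (0.0225%) and 1 as lower (0.00563%), with an unadjusted p under 0.05 for 967 higher (5.44%) and 809 lower probes (4.55%). Set directly against HFCD, HFCSD was lower for ABCA1 by a log2 difference of −0.40 (SE 0.22, adjusted p = 0.809). For A_72_P072951 this difference was −0.45 (SE 0.22, adjusted p = 0.809). Between HFCSD and HFCD, limma called 0 of 17917 probes (0%) in either direction, with unadjusted p under 0.05 for 551 probes that were higher in HFCSD (3.08%) and 335 that were lower (1.87%). The smallest adjusted p was 0.209.

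ABCA1 was also above control in the later samples of HFCSD pigs, with 3 HFCSD and 4 control arrays of whole blood at 19 and at 27 weeks. At 19 weeks no slide held both of these diets, and 3 of the 4 control arrays were scanned on another day than the HFCSD arrays, so differences at 19 weeks, here and below, cannot be told from those of slides. The difference was 2.36 at 19 weeks (adjusted p = 0.0234) and 2.29 at 27 weeks (adjusted p = 0.00409). In the white blood cells it was 2.53 (adjusted p = 0.000146). The change at 27 weeks minus that at 10 weeks was 0.32 (SE 0.30, adjusted p = 0.573), and for 19 minus 10 weeks it was 0.38 (SE 0.30, adjusted p = 0.912). Samples of different weeks and of white blood cells come in part from the same pigs, so they are not separate evidence. Comparisons between weeks, here and below, have no term for the animal. Over all probes of HFCSD whole blood, limma called 2 as higher (0.0116%) and 1 as lower (0.00582%) of 17178 at 19 weeks, where 1328 higher (7.73%) and 713 lower (4.15%) had an unadjusted p under 0.05. At 27 weeks it called 1161 as higher (6.78%) and 663 as lower (3.87%) of 17135, with 2334 (13.6%) and 3190 (18.6%) before adjustment. In white blood cells it called 5 as higher (0.0262%) and 2 as lower (0.0105%) of 19105, with 1321 (6.91%) and 837 (4.38%) before adjustment. When the changes themselves were compared, 0 of 17898 probes differed between 27 and 10 weeks (unadjusted p under 0.05 for 1268 with a higher difference, 7.08%, and 1396 with a lower one, 7.80%). Between 19 and 10 weeks it was 0 of 17853 (716 higher, 4.01%, and 279 lower, 1.56%).

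In the list of LXR targets and cholesterol efflux, 5 of the 7 genes on the array had 7 probes well above background on all 8 arrays. Of these, 5 probes were higher (71.4%, against 47.3% over all such probes) and 2 lower in mean, and ABCA1 alone had an unadjusted p under 0.05 (14.3%, against 0.842% as higher). The median difference over the 5 genes was 0.28, against −0.01 over all such probes. It was 0.56, 0.48 and −0.18 within slides 1, 2 and 3 and 0.40 with the slide as a block. It was 0.15 with normexp background correction, 0.03 without control replicate 1 and 0.12 without HFCSD replicate 2. NR1H3, which encodes LXR alpha itself, differed by 0.32 (SE 0.29) and 0.24 (SE 0.36) on its 2 probes, the latter being 0.04 without control replicate 1. SCD, which makes monounsaturated fatty acids and answers to both LXR and SREBP, read 6.75, 5.58, 6.91 and 6.67 on control replicates 1 to 4 and 5.76, 5.39, 6.06 and 6.43 on HFCSD replicates 1 to 4 (probe A_72_P088586). The groups overlapped because control replicate 2 was low, and the difference was −0.56 (SE 0.31, unadjusted p = 0.0950), or −0.39 without HFCSD replicate 2. SREBF1, the SREBP gene that LXR switches on, differed by 0.03 (SE 0.48) on A_72_P223967 and by −0.004 (SE 0.56) on A_72_P326973, and both signs flip between scalings of the arrays. APOE, a carrier of lipids in plasma and macrophages, was not well above background on any of the 8 arrays.

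Of the 22 genes in the list of sterol synthesis, 6 had a probe on the array and 5 were tested. SQLE read 7.25, 6.56, 7.84 and 7.33 on control replicates 1 to 4. It read 5.30, 5.39, 5.84 and 6.19 on HFCSD replicates 1 to 4. The highest HFCSD array, replicate 4, was still below the lowest control array, replicate 2. The difference was −1.57 (SE 0.28), an intensity 0.337 times that of control, with an unadjusted limma p of 0.000121 that did not pass adjustment (adjusted p = 0.393). Within slides 1, 2 and 3 it was −1.91, −0.73 and −1.40, and with the slide as a block it was −1.44 (adjusted p = 0.741). With normexp background correction, which shrinks differences of dim probes, it was −0.90. Another SQLE probe, A_72_P374783, was well above background on 0 control arrays and 1 HFCSD array and was not tested.

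CYP51A1 removes a methyl group from lanosterol further down the same pathway. Its probe A_72_P155691 read 5.02, 4.41, 5.45 and 4.82 on control replicates 1 to 4 and 2.25, 4.14, 3.99 and 4.32 on HFCSD replicates 1 to 4. Only 2 of the 4 HFCSD arrays were well above background, and HFCSD replicate 1 lay far below the other arrays of its group. The probe was tested through the control group alone and so had to differ, and no p is given. The difference was −1.25, −0.77 without HFCSD replicate 1 and −0.31 with normexp. It was −1.83, −0.42 and −0.81 within slides 1, 2 and 3 and −1.14 with the slide as a block. The other CYP51A1 probe, A_72_P177531, was well above background on all 8 arrays and read 7.995, 7.42, 8.36 and 7.84 in the control group and 6.97, 6.45, 7.47 and 7.72 in the HFCSD group. There the groups overlapped, since control replicate 2 was below HFCSD replicates 3 and 4 (difference −0.75, SE 0.27, unadjusted p = 0.0154).

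MSMO1, a sterol demethylating oxidase, differed by −0.36 (SE 0.20), or by −0.21 without control replicate 1, and lay between −0.36 and −0.19 over 5 scalings. Of the 5 probes of the list that were well above background on all 8 arrays, 5 were lower in mean (52.7% of all such probes), 2 had an unadjusted p under 0.05 (0.557% of all), 1 had groups that did not overlap (0.278% of all) and 0 passed adjustment. The median over their 5 genes was −0.42, against −0.01 over all such probes. It was −0.27 with normexp, −0.37 with the slide as a block and −0.88, −0.01 and −0.20 within slides 1, 2 and 3, so it was largest within slide 1 and near 0 within slide 2. The list of sterol sensing and LDL uptake, which holds the regulators of that pathway such as SCAP, had a median of −0.13 over 6 tested genes. This median was −0.07 without control replicate 4 and −0.08 without HFCSD replicate 3. An unadjusted p under 0.05 held for 0 of its 8 probes, against 0.842% as higher and 0.557% as lower over all such probes.

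SQLE was low in the other comparisons with control too. Its difference was −1.44 (SE 0.29) for HFCD at 10 weeks against the same control arrays, where HFCD replicates 1 to 4 read 5.78, 5.45, 6.21 and 5.80. For HFCSD it was −1.71 at 19 weeks (adjusted p = 0.219), −2.25 at 27 weeks (adjusted p = 0.00717) and, for the white blood cells, −1.62 (adjusted p = 0.0185). HFCSD minus HFCD at 10 weeks was −0.13 (SE 0.29, adjusted p = 0.894). The change at 27 weeks minus that at 10 weeks was −0.68 (SE 0.46, adjusted p = 0.445).

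Among interferon-induced genes, 22 genes had 34 probes well above background on all 8 arrays, of which 28 (82.4%) were higher and 6 lower in mean in the HFCSD group, against 47.3% higher over all such probes. None passed adjustment, 3 had an unadjusted p under 0.05 as higher (8.82%, against 0.842% over all such probes) and 2 were higher with no overlap (5.88%, against 0.633%). The median over the 22 genes was 0.22, against −0.01 over all such probes. It was 0.18 with the slide as a block and 0.28, 0.46 and 0.14 within slides 1, 2 and 3. The median was 0.35 without control replicate 1, 0.19 without control replicate 2 and 0.21 without HFCSD replicate 2. HFCSD replicate 2 was the highest of the 8 arrays for 20 of the 34 probes (58.8%), whereas it was the highest for 13.7% of all such probes. This count was made after the values had been seen.

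ISG20, an exonuclease that degrades viral RNA, read 9.44, 8.90, 9.05 and 9.32 on control replicates 1 to 4 and 10.22, 11.16, 9.65 and 9.73 on HFCSD replicates 1 to 4. Every HFCSD array was above every control array, with replicate 2 on top. The difference was 1.01 (SE 0.44, unadjusted p = 0.0394) and 0.81 with the slide as a block. Within slides 1, 2 and 3 it was 1.25, 0.76 and 0.54, and it was 0.69 without HFCSD replicate 2.

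CXCL10, a chemokine that attracts activated T cells, read 6.87, 6.32, 5.39 and 6.10 on control replicates 1 to 4 and 7.51, 9.29, 7.87 and 6.71 on HFCSD replicates 1 to 4. Only HFCSD replicate 4 fell within the control range, and the difference was 1.68 (SE 0.73, unadjusted p = 0.0413), or 1.19 without HFCSD replicate 2. RSAD2, an antiviral enzyme also called viperin, read 6.97, 7.38, 6.83 and 7.60 in the control group and 8.37, 10.14, 8.36 and 7.42 in the HFCSD group. Here too HFCSD replicate 4 lay among the controls and replicate 2 was far above the rest (difference 1.38, SE 0.71, unadjusted p = 0.0755, and 0.85 without replicate 2). MX1, a GTPase that blocks viral replication, read 11.56, 12.34, 11.85 and 12.76 in the control group and 12.74, 13.55, 12.94 and 12.50 in the HFCSD group. The groups overlapped through control replicate 4, with a difference of 0.81 (SE 0.42), or 0.60 without HFCSD replicate 2.

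**Figure D2:**
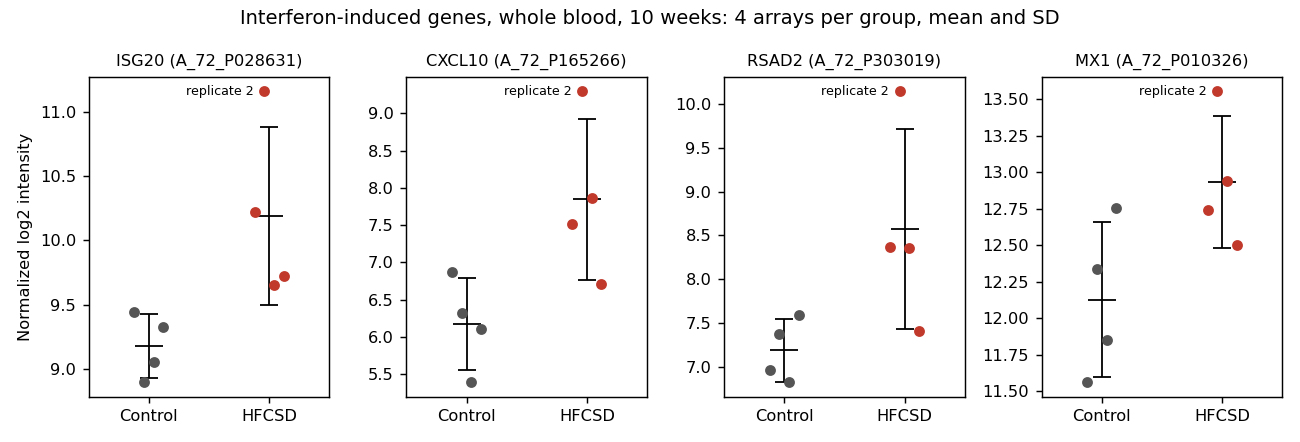
Normalized log2 intensity (y axis, a separate scale in each panel) of 4 interferon-induced genes in whole blood at 10 weeks, by diet (x axis). Each point is 1 of 4 arrays, the horizontal bar is the group mean and the whiskers are 1 SD. HFCSD replicate 2 was the highest array in each panel, at 11.16 for ISG20 and 9.29 for CXCL10, and the groups overlapped for CXCL10, RSAD2 and MX1.

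The genes of the list that were lower in mean were OAS1, OAS2, OASL, PSMB8 and PSMB9. OAS1 and OAS2 make oligoadenylates that start RNA decay in virus-infected cells. OAS1 read 9.93, 8.44, 9.49 and 9.23 on control replicates 1 to 4 and 9.77, 6.10, 9.33 and 9.20 on HFCSD replicates 1 to 4. HFCSD replicate 2, the highest array for CXCL10 and RSAD2, was by far the lowest for OAS1, while the other HFCSD arrays lay within the control range (difference −0.67, SE 0.90, and 0.16 without replicate 2). OAS2 was lowest in the same array on both of its probes, at 6.53 and 11.60, and its differences of −0.21 and −0.18 became 0.02 and 0.08 without it.

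NFKB1 and CCL3L1 stood out among inflammatory genes, in opposite directions. NFKB1, a subunit of the transcription factor NF-kappa B, read 8.13, 8.28, 7.77 and 8.18 on control replicates 1 to 4 and 8.51, 8.51, 8.44 and 8.44 on HFCSD replicates 1 to 4. All HFCSD arrays were above all control arrays and nearly equal to each other (difference 0.39, SE 0.14, unadjusted p = 0.0173, and 0.31 on the other NFKB1 probe). It was 0.38, 0.16 and 0.47 within slides 1, 2 and 3 and 0.36 with the slide as a block. CCL3L1, a chemokine for monocytes and T cells, read 6.53, 6.82, 6.40 and 6.38 in the control group and 5.30, 5.23, 6.25 and 6.01 in the HFCSD group. The groups did not overlap, with HFCSD replicates 1 and 2 lowest (difference −0.84, SE 0.36, unadjusted p = 0.0399). Within slides 1, 2 and 3 this difference was −1.27, −0.57 and −0.38. It was −0.71 with the slide as a block and −0.50 with normexp. In the list as a whole, 16 genes had 20 probes well above background on all 8 arrays, 10 higher and 10 lower in mean. The median of 0.00 changes sign between scalings. It was −0.52, 0.28 and 0.21 within slides 1, 2 and 3, 0.14 without control replicate 1 and −0.16 without control replicate 2. TNF, a central inflammatory cytokine, differed by −0.20 (SE 0.14) on probe A_72_P146356 and by −0.15 (SE 0.18) on A_72_P211447, and none of the probes of IL6, CCL2 and CXCL8 was well above background on any of the 8 arrays.

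Among probes without a gene name that had an unadjusted p under 0.05 and groups that did not overlap, the 2 largest differences each way are given here. These 4 are dim in the lower group and were tested through the brighter group alone, so they had to differ. A_72_P091851, annotated as a transcript of alveolar macrophages, was well above background on 0 control arrays and on all 4 HFCSD arrays, where it read 5.34, 6.11, 5.42 and 4.14. Its control arrays read 2.03, 1.38, 1.39 and 2.36, which is noise. HFCSD blood held at least 2.11-fold more, with an adjusted p of 1.0 in the fit of 3 diets and of 0.0423 in a fit of the 2 groups alone, both of which take the noise in the control arrays as signal. For such a bound, the mean normalized log2 of the bright group was set against the mean, over the arrays of the dim group, of the lowest signal among probes well above background on that array, or the probe's own signal where that was higher. Its log2 difference, which counts noise as signal, was 3.70, 4.04 and 2.27 within slides 1, 2 and 3, 3.09 with the slide as a block and 0.62 with normexp.

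A_72_P034336, which resembles only a protein fragment of a blood fluke, was likewise well above background on 0 control arrays and all 4 HFCSD arrays. It read 4.70, 5.31, 5.27 and 5.37 on HFCSD replicates 1 to 4 and 3.42, 1.78, 2.76 and 3.31 on control replicates 1 to 4. On the quantile normalized scale HFCSD blood held at least 1.98-fold more, and again no p is given, since the probe had to differ. Its log2 difference, which counts noise as signal, was 1.59, 3.49 and 2.34 within slides 1, 2 and 3. It was 2.39 with the slide as a block and 0.51 with normexp.

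A_72_P202657 shares a transcript accession with a probe among the largest unnamed differences given here. It was picked for that reason after its values had been seen. It read 5.04, 3.95, 4.92 and 4.46 on control replicates 1 to 4, of which 2 were well above background, and 6.55, 6.43, 6.65 and 6.99 on HFCSD replicates 1 to 4. The mean difference was 2.06 (SE 0.30), which counts some noise as signal. The probe too was tested through the HFCSD group alone, so it had to differ and no p is given for the difference of 2.06. Within slides 1, 2 and 3 the difference was 1.44, 2.71 and 2.29, and with the slide as a block 2.10. With normexp it was 0.89. It was 3.00 at 19 weeks (adjusted p = 0.0234) and 2.61 at 27 weeks (adjusted p = 0.00409).

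On the lower side, A_72_P162531, from a lung transcript, read 4.74, 5.02, 5.27 and 4.86 on control replicates 1 to 4 and 3.98, 3.90, 4.56 and 2.99 on HFCSD replicates 1 to 4. Only 1 HFCSD array was well above background, so the difference of −1.11 (−1.09 with the slide as a block, −0.24 with normexp) is partly noise. A_72_P367743, annotated "Unknown", read 4.76, 4.17, 5.25 and 4.59 in the control group and 3.94, 3.18, 3.72 and 3.91 in the HFCSD group. It was well above background on 2 HFCSD arrays, and the difference was −1.01 (−0.98 with the slide as a block, −0.27 with normexp).

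The first 30 of 60 bases of the leading probe of ABCA1 and of 4 probes without a gene name are given so that they can be placed on a genome, in lower case from 5′ to 3′ as in the array files.

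ABCA1: ttgtgggaagaagcaaactggatactgtac

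A_72_P072951: gctgccacttctaagataaaggtttgattt

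A_72_P034336: gaagtattaaaggcatatttctatgttgta

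A_72_P202657: gttcaaagacttcagcttttgcttcttttg

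A_72_P091851: cactaaaagaagagtcttgggaactgatta

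WFDC2, a secreted protease inhibitor, read 9.80, 10.17, 10.26 and 10.34 on control replicates 1 to 4 and 10.86, 10.85, 10.59 and 10.57 on HFCSD replicates 1 to 4. The groups did not overlap (difference 0.57, SE 0.16, unadjusted p = 0.00393). Within slides 1, 2 and 3 it was 1.05, 0.42 and 0.27, and 0.56 with the slide as a block. At 27 weeks the difference was 1.45 (adjusted p = 0.0101). SERPINA6, the corticosteroid-binding globulin, read 5.99, 5.82, 5.89 and 5.69 in the control group and 5.36, 5.41, 5.37 and 5.34 in the HFCSD group. The HFCSD arrays were nearly level below all control arrays (difference −0.48, SE 0.19, unadjusted p = 0.0247, −0.50 with the slide as a block and −0.31 with normexp). The SE also takes in the HFCD arrays, which read 5.21, 5.855, 5.93 and 5.18. At 27 weeks the SERPINA6 difference was 0.55. AMBN, a tooth enamel matrix protein, read 6.26, 6.10, 6.62 and 6.59 in the control group and 5.67, 5.77, 6.09 and 5.77 in the HFCSD group. Control replicate 2 and HFCSD replicate 3, on the same slide, were level at 6.10 and 6.09 (difference −0.57, SE 0.19, unadjusted p = 0.0125, −0.47 with the slide as a block and −0.35 with normexp). At 27 weeks the AMBN difference was 0.60 (adjusted p = 0.150), and the change at 27 weeks minus that at 10 weeks was 1.16 (SE 0.30, adjusted p = 0.287).

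Heat shock proteins, chaperones that refold damaged proteins, had 11 probes of 6 genes well above background on all 8 arrays, 7 higher (63.6%, against 47.3% over all such probes) and 4 lower in mean, and 3 had an unadjusted p under 0.05 as higher (27.3%, against 0.842%). HSPA1A, the inducible Hsp70, read 9.12, 9.37, 8.36 and 9.11 on control replicates 1 to 4 and 9.33, 9.99, 9.22 and 9.75 on HFCSD replicates 1 to 4. Control replicate 2 lay above HFCSD replicates 1 and 3, and the difference was 0.58 (SE 0.23, unadjusted p = 0.0268), or 0.37 without control replicate 3. HSP90AA1, the stress-inducible Hsp90, differed by 0.42 on A_72_P207327 (SE 0.16, unadjusted p = 0.0217) and by 0.42 on A_72_P174931 (SE 0.18, unadjusted p = 0.0352), and the groups overlapped on both. On A_72_P232852 and A_72_P325738 it differed by 0.36 and 0.24. The median over the 6 genes was 0.24, against −0.01 over all probes tested. It was −0.04, 0.18 and 0.41 within slides 1, 2 and 3, 0.29 with the slide as a block and 0.13 without HFCSD replicate 4.

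Over all 4 arrays of each group, the medians of blood cell gene lists were −0.06 for T cells, −0.16 for B cells, −0.13 for NK and cytotoxic cells, 0.01 for monocytes and macrophages, 0.01 for neutrophils, −0.02 for platelets and −0.13 for erythroid cells, but they differed widely between slides. For platelets the median within slides 1, 2 and 3 was 0.72, −0.93 and 0.07. It was 0.26, −0.55 and −0.05 for erythroid cells and −0.76, 0.06 and 0.29 for NK and cytotoxic cells. For B cells it was −0.65, 0.14 and 0.01. For T cells it was −0.39, 0.17 and 0.15, with −0.34, 0.13 and 0.18 for monocytes and macrophages and −0.37, 0.12 and 0.31 for neutrophils. The summed signal of each of these lists overlapped between the groups. The brightest probe made up from 13.9% (FTH1, erythroid cells) to 76.3% (CD40, B cells) of a sum, so a sum can follow 1 gene. Of the 14 probes of monocytes and macrophages, 7 were higher and 7 lower in mean. CD14, the monocyte receptor for bacterial lipopolysaccharide, read 10.75, 9.60, 9.54 and 10.28 on control replicates 1 to 4 and 9.25, 9.17, 8.96 and 10.26 on HFCSD replicates 1 to 4 (probe A_72_P050971). HFCSD replicate 4 alone lay within the control range (difference −0.63, SE 0.40, and −0.68, SE 0.42, on the other CD14 probe), and without control replicate 1 these were −0.40 and −0.38. CD163, a macrophage receptor for haemoglobin, differed by 0.31 (SE 0.44), or −0.06 without control replicate 3. Of the 12 probes of T cells, 5 were higher and 7 lower in mean. GATA3, a transcription factor of T cells, was higher by 0.40 (SE 0.27), or by 0.13 without control replicate 1. CD8B, a coreceptor of cytotoxic T cells, was higher by 0.34 (SE 0.34) and 0.29 (SE 0.34). Without control replicate 2 these were 0.14 and 0.09, and without control replicate 1 they were 0.64 and 0.52. CD3D, part of the T cell receptor complex, differed by −0.40 (SE 0.19) and −0.30 (SE 0.15), with overlap on both probes, and by −0.23 and −0.22 without HFCSD replicate 2. CD2, an adhesion receptor of T cells, read 8.51, 8.28, 8.36 and 8.17 in the control group and 8.15, 8.15, 7.93 and 8.16 in the HFCSD group. The groups touched without overlapping (difference −0.23, SE 0.19, unadjusted p = 0.247).

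CAT, the peroxide-splitting catalase that is abundant in red cells, read 12.03, 12.01, 11.39 and 11.72 on control replicates 1 to 4 and 13.30, 12.72, 12.13 and 11.99 on HFCSD replicates 1 to 4. HFCSD replicate 4 lay just under control replicates 1 and 2, and the difference was 0.75 (SE 0.33, unadjusted p = 0.0406), or 0.49 without HFCSD replicate 1. In the list of erythroid cells, with 5 genes, 2 of 14 probes were higher, 1 each of CAT and GPX1, and 12 lower, of which 10 are of FTH1, while HBE1, an embryonic globin, differed by −0.42 (SE 0.45). GPX4, which reduces lipid peroxides, read 9.90, 9.55, 9.81 and 9.71 in the control group and 9.20, 9.34, 9.38 and 9.52 in the HFCSD group. These groups did not overlap (difference −0.38, SE 0.18, unadjusted p = 0.0546), and on the other GPX4 probe the difference was −0.31 with overlap. The median over the 9 antioxidant genes tested was 0.04 and changes sign between scalings.

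COX7C, a subunit of cytochrome oxidase, read 10.03, 8.93, 9.01 and 8.41 on control replicates 1 to 4 and 9.86, 9.30, 10.03 and 9.91 on HFCSD replicates 1 to 4. Control replicate 1 was among the highest arrays (difference 0.68, SE 0.29, unadjusted p = 0.0383, and 0.45 without control replicate 4), and the median over 15 genes of the respiratory chain was 0.01. TNNI2, a troponin of fast muscle, read 6.93, 5.96, 6.37 and 6.36 in the control group and 5.77, 6.05, 5.68 and 5.96 in the HFCSD group. Control replicate 2 lay among the HFCSD arrays (difference −0.54, SE 0.20, unadjusted p = 0.0190). The median of the skeletal muscle list was −0.04, −0.28 with the slide as a block, 0.46, −0.98 and −0.35 within slides 1, 2 and 3 and 0.22 without control replicate 2, so it has no stable sign. The list of fatty acid and adipocyte genes had a median of 0.03 over 19 genes. Of its 28 probes well above background on all 8 arrays, 16 were higher in mean (57.1%, against 47.3% over all such probes) and 12 lower. None had an unadjusted p under 0.05, against 0.842% as higher and 0.557% as lower over all such probes. Toll-like receptors had a median of −0.16 (−0.73, 0.22 and 0.14 within slides 1, 2 and 3). Without control replicate 1 this median was −0.03, and without HFCSD replicate 2 it was −0.06. The medians were −0.04 for cytosolic ribosomal proteins and 0.02 for the proteasome. What raised or lowered any of these genes was not tested.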

How the data were processed

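Per the file headers, the deposited array files hold the Cy3 signal of each spot as a background-subtracted intensity computed by Agilent Feature Extraction, version 10.5.1.1 in the files and 9.5.3.1 in the labels. The deposited series table holds ratio-like values whose column medians lie near 0.1 on a linear scale. The authors name quantile normalization for their analysis, but which step put this deposited table near 0.1 is not known, so it served only as an alternative.

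From the array files, control spots were removed, spots marked as outliers were left out, the intensity was taken as log2 and quantile normalized over the 45 arrays, and spots of the same probe were averaged. limma 3.58.1 (R 4.3.3) fitted the 3 diets at 10 weeks (12 arrays) with Benjamini-Hochberg adjustment at 0.05. Figures were drawn with matplotlib 3.10.9, and the tables were made with pandas 2.3.3, scipy 1.17.1 and numpy 2.4.6 under Python 3.11.15. The code was tested on simulated data. Slide and replicate as blocks, other scalings (75th percentile, normexp with an offset of 50, the series table), presence filters, fits on other sets of arrays and each array left out were tried.

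Named genes are every probe past adjustment, up to 10 named probes each way with an unadjusted p under 0.05 and no overlap (5 higher and 5 lower qualified), ABCA1 and SQLE, members of gene lists (core members and the 3 with the smallest p), and, among unnamed probes that met the same p and overlap conditions, the 2 largest rises and 2 largest falls. Some genes that this rule names are not reported here. Members and lists were chosen with earlier results of these data known. Of 43603 probes 2633 have a gene symbol, and 1439 of these were tested. Most symbols came from RefSeq accessions (2002 probes), and that of ABCA1 came from the description of a similar mouse protein. An exact test of the summed marker lists was planned and not run, because no p-value is given for a score over a chosen list. A search of promoters for sterol and LXR elements was planned and not run, because no pig genome sequence was at hand.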

Additional observations from a re-analysis of the deposited data

Results flagged for a closer look

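In each group of 4 arrays, the gap between the highest or lowest array and its neighbour was divided by the range of the group. An array was singled out where this ratio was above what chance gives in about 1 in 20 groups. This held in 8 of 132 groups, and chance alone gives about 6.6.

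HFCSD replicate 2 was far from the other 3 HFCSD arrays for 4 probes. It was high for TNF on A_72_P211447 (8.05 against 7.74 to 7.77, ratio 0.918). It was low for OAS1 (6.10 against 9.20 to 9.77, ratio 0.844) and for OAS2 on A_72_P108986 (6.53 against 7.35 to 7.48, ratio 0.854) and on A_72_P303179 (11.60 against 12.54 to 12.72, ratio 0.842). Probes of the same gene share an RNA, so these are fewer than 4 separate events. Whether this pig, its blood draw or its array differed was not tested.

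HFCSD replicate 1 was low for CYP51A1 on A_72_P155691 (2.25 against 3.99 to 4.32, ratio 0.840) and for A_72_P034336 (4.70 against 5.27 to 5.37, ratio 0.854). HFCSD replicate 4 was high for CD14 on A_72_P088666 (7.12 against 5.68 to 5.86, ratio 0.879). HFCSD replicate 3 was low for CD2 (7.93 against 8.15 to 8.16, ratio 0.980), where the other arrays were nearly equal. The causes were not tested.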

How the results depend on the processing

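Signs changed for some list members, such as OAS1, OAS2, SREBF1 and CD163, and for some list medians. The rise of ABCA1 kept its direction in all settings and its side of the threshold in 14 of 22. With the slide as a block it was 1.99 (limma adjusted p = 0.0515) and 0 probes passed. With the methods' t-test and Benjamini-Hochberg adjustment it was 1.98 (adjusted p = 0.0811) and 0 probes passed. Without the array of each group with the lowest share of spots well above background, an alternative chosen after the data were seen, it was 1.84 (limma adjusted p = 0.275), 0 probes passed and the count by fold and the methods' t-test was 46. With each array left out in turn, ABCA1 lay between 1.90 and 2.07, SQLE between −1.80 and −1.37, the probes past adjustment between 0 and 3 and the count by fold between 22 and 42. With all 45 arrays in 1 fit, 5 probes passed and SQLE (−1.57) was past adjustment in limma (adjusted p = 0.0122). So were A_72_P202657 and A_72_P034336, and A_72_P091851 with only the 2 groups fitted. These were tested through the HFCSD group alone and had to differ, so no p is given for them. The count by fold was 22, and it was 6 with normexp, 187 with a weaker mark of presence, 208 with no filter on dim probes and 10 with only probes present on every array. The cause was not tested. The counts of 0 for HFCSD against HFCD and for the changes between weeks were tried only with the 75th percentile and with probes present on every array, and stayed 0.

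With the replicate number as a block, 3 probes passed adjustment and ABCA1 was 1.98 (limma adjusted p = 0.0463). A_72_P202657 (2.06) was past it too, but it was tested through the HFCSD group alone and had to differ, so its p is not given. The deviations of arrays with the same number correlated at −0.0692, 0.490, 0.321 and 0.201. Control replicates 2, 3 and 4 correlated best with the HFCSD array of their number and control replicate 1 with HFCSD replicate 4. Since not every pair was above 0.1, the numbers were not taken to pair samples.

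Signal over background limits the dim probes: 16198 of 43603 probes were tested, and differences of dim probes shrink with normexp.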
